A study of Mus musculus with 4 samples.

Results

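The miR-30 family is described here through its 5 main mature strands, mmu-miR-30a, mmu-miR-30b, mmu-miR-30c, mmu-miR-30d and mmu-miR-30e, in mouse hippocampus after spatial learning. The prefix for mouse is left out from here on. Members were the array probes with exactly these names, which makes 5 of the 705 mouse miRNA probes on the array. RNA came from the hippocampus of wild-type C57BL/6J mice, an inbred laboratory strain, that had been trained in the Morris water maze, where a mouse learns the place of a hidden platform. Tissue was taken right after training from good performers (2 arrays) and from poor performers (2 arrays), and every animal had been trained, so no untrained mouse is among the groups. The series names 4 mice per group and does not say how they were spread over the 2 arrays, so the p-values below cover only how arrays varied, and that variation may be technical.

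A miRNA is a short RNA that is cut from a hairpin precursor and guides the Argonaute protein to messenger RNAs, mostly through its seed, the bases 2 to 8 counted from the 5′ end. The strand of the hairpin that is kept more often is the main strand, and its partner, marked here with an asterisk, is the passenger strand. The miR-30 family has several genes in mammals, all main strands share a seed, and the family is plentiful in many tissues, brain included. In the nervous system it is best known for miR-30a, which represses the growth factor gene Bdnf in the prefrontal cortex.

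The sequences are shown because members that share a seed differ from each other by few bases, which bears on how far one probe can be told from another. They come from RefSeq (assembly GRCm38.p6), where 3 of the 5 members matched. The array's miR-30 names carry no arm, so the plain name was taken as the 5p strand and the asterisk as the 3p strand. They are written 5′ to 3′ with the seed in capitals.
miR-30a-5p: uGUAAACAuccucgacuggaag
miR-30c-5p: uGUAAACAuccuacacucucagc
miR-30e-5p: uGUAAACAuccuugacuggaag
miR-384-5p: uGUAAACAauuccuaggcaaugu
The seed of all 4 strands reads GUAAACA, and they are the only 4 of 1679 mature names in that table that carry it. miR-30b and miR-30d had no entry there, so this count does not cover them. Counted from the 5′ end, miR-30a and miR-30e are identical except for C13U. miR-30c differs from miR-30a at 5 of 22 aligned positions, by C13A, G14C, G18C, G19U and A20C, and the first 12 bases are the same. miR-384-5p departs from miR-30a right after the seed region, with 10 differences over 22 positions. The probes’ own sequences were not used here, so how much a probe also binds a relative's RNA was not tested.

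The passenger strands fall into pairs with a seed of their own, and they are shown because 1 of them, miR-30c-1*, had the widest difference of the family after quantile normalization (without normalization that of miR-30c was wider, 0.13 against -0.12 log2 units).
miR-30a-3p: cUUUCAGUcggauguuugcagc
miR-30e-3p: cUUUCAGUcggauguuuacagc
miR-30c-1-3p: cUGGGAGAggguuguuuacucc
miR-30c-2-3p: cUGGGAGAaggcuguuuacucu
The strands of miR-30a and miR-30e differ by G18A alone. Those of the 2 miR-30c genes differ by G9A, U12C and C22U. The genes lie in pairs as well. Mir30a (chr1:23272269-23272339, plus strand) and Mir30c-2 (chr1:23291701-23291784, plus strand) are 19361 bases apart. Mir30c-1 (chr4:120769534-120769622, minus strand) and Mir30e (chr4:120772606-120772697, minus strand) are 2983 bases apart, and both lie within the span of Nfyc, which encodes a subunit of the transcription factor NF-Y. Since Mir30c-1 and Mir30c-2 give the same main strand, the miR-30c probe reads the sum of both genes, while their passenger strands have separate probes.

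Each probe was printed as 3 spots. A probe counted as detected on an array if at least 2 of them had the flag 0. The arrays detected 310 to 330 of the 705 probes, and blank spots averaged 63.0 to 64.4 in raw intensity, the unnormalized brightness on a linear scale. All 3 neuronal markers (miR-124, miR-9, miR-128) were detected on all 4 arrays, with a summed raw intensity of 27985 and 28094 in good and 25439 and 26071 in poor performers. Of 2 oligodendrocyte markers both were detected, with sums of 986 and 993 against 1051 and 1080. After the normalization described below miR-219 was lower in good performers, at -0.27 log2 units (limma adjusted p = 0.025). The other, miR-338-3p, had raw intensities of 330 and 318 in good and 318 and 324 in poor performers. It did not pass after normalization, at -0.075 log2 units (limma adjusted p = 0.32). The 2 astrocyte markers, miR-29a and miR-26a, were detected and summed to 5931 and 6185 against 5408 and 5545. Of 3 microglial and leukocyte markers miR-223 and miR-142-3p were detected on no array, with sums of 241 to 263 in good and 247 to 254 in poor performers. The 2 endothelial markers were detected and summed to 715 and 746 against 723 and 726. For red blood cells miR-451 was detected on all arrays and miR-144 on none, with sums of 223 and 255 against 245 and 399, where 399 includes 1 miR-144 spot at 536 on poor performers array 2. Of 3 choroid plexus markers miR-449a was undetected, and the sums were 337 and 355 against 332 and 344. These sums are not normalized, and the good-performer arrays were brighter across much of the array. After the normalization described below, good minus poor performers came to 0.0097 log2 units for miR-124, -0.067 for miR-9 and 0.14 for miR-128. It came to 0.10 for miR-29a and 0.11 for miR-26a, and none of these neuronal and astrocyte markers passed (limma adjusted p from 0.15 to 0.98). The other main strands of the miR-29 and miR-26 families did not share that rise, with 0.0093 for miR-29b, 0.0039 for miR-29c and 0.0016 for miR-26b. Both endothelial markers were lower in good performers on that scale, miR-126-3p at -0.083 and miR-126-5p at -0.090. The remaining tested markers were miR-451 at -0.086, miR-150 at -0.014, miR-204 at -0.022 and miR-211 at 0.036. None of these passed (limma adjusted p from 0.21 to 0.93). The part of cell composition in any value below was not tested, and in whole tissue fewer cells of a type and less RNA per cell cannot be told apart.

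All 5 members were detected on every spot of every array, 12 of 12 spots each, and none came near the scanner's ceiling of 65535, since the brightest member spot read 900. miR-30a had a raw intensity, averaged over 3 spots, of 724 and 728 in good performers and of 680 and 686 in poor performers. miR-30b read 304 and 307 in good and 288 and 290.3 in poor performers. miR-30c, which represses the lipoprotein assembly gene Mttp in liver, read 402 and 405 against 372 and 362. In these 3 members both good-performer arrays were brighter than both poor-performer arrays. miR-30d, which is known in mouse pancreatic beta cells for raising insulin expression, read 829 and 805 in good and 785 and 854 in poor performers. miR-30e read 548 and 570.3 against 558 and 537. For these last members the arrays of the groups interleaved.

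**Figure D1:**
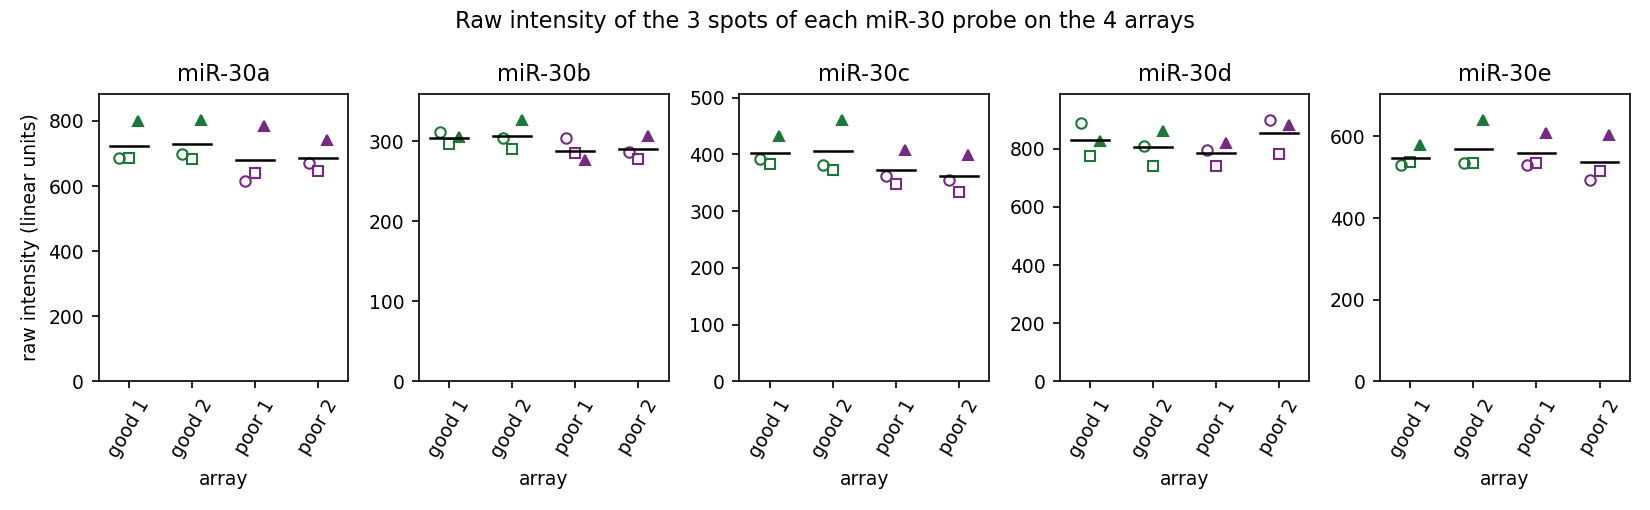
Raw intensity (linear units, axes from 0) of the 3 spots of each miR-30 probe on the 4 arrays, with a panel per probe, circles, squares and filled triangles for the spots in the order of the file (the third filled), and a line at the mean. Good-performer arrays (green) lie slightly above poor-performer arrays (purple) for miR-30a, miR-30b and miR-30c, and the third spot of miR-30a, miR-30c and miR-30e is the brightest of the 3 on every array.

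Before normalization the good-performer arrays were brighter across much of the array. The mean raw intensity of 4 of 5 members was higher in good performers, and so was that of 71.2% of the 316 tested probes. The 3 members whose raw values did not overlap compare with 37% of all tested probes that did the same in that direction (8.23% in the other). The median raw difference was 5.59% for the members and 2.73% for all tested probes. Added spike-in RNA also read higher in good performers, by 0.048 to 0.26 log2 units over 5 spike-in probes. Values were therefore compared after background correction and quantile normalization, which gives the 4 arrays the same distribution.

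On the normalized log2 scale no member of the family differed between good and poor performers at an adjusted p under 0.05 (limma, adjusted over 316 probes), where 5.06% of tested probes passed (3.16% higher and 1.9% lower in good performers). At an unadjusted p under 0.05 there were 0 members, against 20.9% of tested probes. The median log2 fold change of the 5 members was -0.0020, beside -0.0072 over all tested probes, and single members ranged from -0.12 to 0.041. A fold change is good minus poor performers, on a log2 scale with an offset of 50 that understates changes.

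miR-30a was at 9.49 and 9.42 log2 intensity in good and at 9.48 and 9.43 in poor performers. The arrays of the groups fully interleaved, and good minus poor performers came to -0.0020 ± 0.041 log2 units (SE, limma, adjusted p = 1). Its 95% interval, -0.11 to 0.11, corresponds to a ratio of 0.924 to 1.08. miR-30b, which with miR-30d is known from human melanoma as a regulator of the glycosyltransferase GALNT7, was at 8.22 and 8.22 in good and at 8.23 and 8.19 in poor performers. The difference was 0.0085 ± 0.030 log2 units (SE, limma, adjusted p = 0.921), with an interval of -0.075 to 0.092. miR-30b was the least variable member, with a standard deviation of 0.018 over the 4 arrays, beside a median of 0.058 over tested probes.

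miR-30c was at 8.65 and 8.57 in good and at 8.63 and 8.51 in poor performers, again overlapping. The difference was 0.041 ± 0.056 log2 units (SE, limma, adjusted p = 0.736), and its interval ran from -0.11 to 0.20. miR-30e was at 9.09 and 9.07 in good and at 9.21 and 9.09 in poor performers. Both good-performer arrays were the lower ones, but array 2 of the poor performers was close to one of them. The difference was -0.072 ± 0.050 log2 units (SE, limma, adjusted p = 0.528), with an interval of -0.21 to 0.067.

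miR-30d had the widest difference of the 5 after quantile normalization. It was at 9.67 and 9.57 in good and at 9.68 and 9.79 in poor performers, so the groups did not overlap, though array 1 of each group had nearly the same value. The difference was -0.12 ± 0.059 log2 units (SE, limma, adjusted p = 0.367), a ratio of 0.922 with an interval of 0.823 to 1.03. Groups did not overlap for 2 of 5 members, miR-30d and miR-30e, both lower in good performers, while 27.5% of all tested probes were separated in that direction, 23.1% in the other and 50.6% in either. An exact permutation test of 2 arrays against 2 reaches a two-sided p of 0.333 at the lowest.

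**Figure D2:**
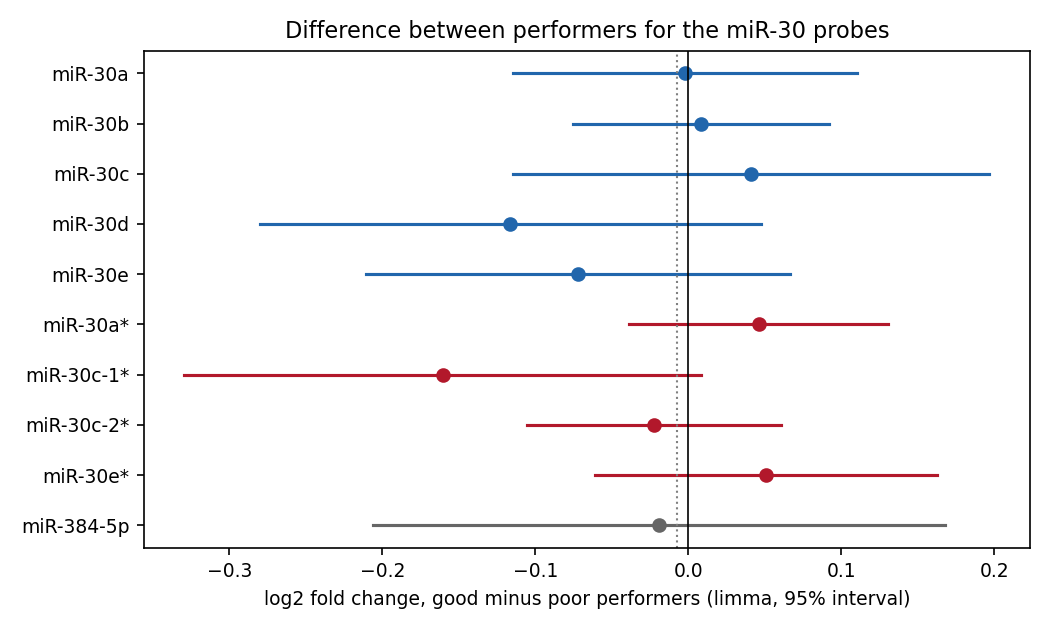
Log2 fold change (good minus poor performers) with its 95% interval from limma for the 5 members (blue), the 4 tested passenger strands (red) and miR-384-5p (grey), with a dotted line at the median of all tested probes. All 10 intervals include 0, and the miR-30c-1* interval, -0.33 to 0.0084, reaches least beyond it.

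On every array the spots of miR-30a, miR-30c, miR-30d and miR-30e spread by more than the raw group difference on any of their spots. For miR-30b the spread was 0.071 to 0.17 log2 units, beside group differences of 0.058 to 0.12. On every array the third miR-30a spot was brighter than the mean of the first 2, by 0.17 to 0.32 log2 units of raw intensity. The same was seen for miR-30c, by 0.16 to 0.29, and for miR-30e, by 0.12 to 0.26. miR-30b and miR-30d showed it on 3 of 4 arrays. Among all tested probes the third spot was the brighter on all 4 arrays for 125 of 316 (39.6%). Differences between groups taken spot by spot lay closer together. The raw log2 difference, good minus poor, was 0.11, 0.091 and 0.072 on the 3 spots of miR-30a, and 0.11, 0.15 and 0.15 on those of miR-30c. For miR-30d it was 0.0046, -0.0064 and -0.011. Of the 15 member spots 13 had the higher raw mean in good performers, a share of 86.7%, beside 67.4% of the 948 spots of all tested probes. Spots of a probe share the labelled RNA of an array and are not replicates of the mice.

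In differences between probes of the same array, a factor common to the array cancels only in part. An offset of 50 was added before the log2 step, so such a factor acts less on dim than on bright probes. Quantile normalization moves these differences as well. They were used to ask whether members changed by unequal amounts. Only the change of such a difference between arrays is read here, since its size also depends on the probes. The difference miR-30c minus miR-30d was -1.04 and -0.995 log2 units in good and -1.07 and -1.24 in poor performers, without normalization. miR-30c was thus higher relative to miR-30d on both good-performer arrays, by 0.14 on average (0.16 after quantile normalization), but the spread between the poor-performer arrays was as large as that change. miR-30a minus miR-30b, at 1.25 and 1.25 against 1.23 and 1.24, changed by 0.014, the smallest change of the 10 member pairs, and by -0.010 after quantile normalization. Over all 10 pairs the change was at most 0.14, and in 6 of 10 the groups did not overlap, beside 52.6% of the 49770 pairs of tested probes. The median change over those pairs, without sign, was 0.090. Of the 10 member pairs 3 exceeded that median, and the pairs share probes and arrays. miR-30a and miR-30e, whose sequences differ at 1 position, gave 0.40 and 0.35 against 0.28 and 0.36, which overlap.

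The passenger strands were read in the same fit. Of 5 passenger probes on the array 4 passed the filter on dim probes, and miR-30b*, at a raw intensity of 64.3 to 67.0, was not detected on any spot. None of the 4 passed (limma). miR-30c-1*, from the Mir30c-1 hairpin on chromosome 4 shown above, is described first. Its raw intensity, averaged over 3 spots, was 196 and 188 in good and 209 and 205 in poor performers. It was the one passenger strand whose good-performer arrays were both the dimmer ones. Its spots did not all show this. Spot 1 read 190 and 188 against 208 and 209, and spot 2 read 189 and 181 against 218 and 211. Spot 3 read 209 and 195 against 200 and 196, which overlap. On the normalized scale miR-30c-1* was at 7.63 and 7.50 against 7.77 and 7.68, a difference of -0.16 ± 0.061 log2 units (SE, limma, unadjusted p = 0.058, adjusted p = 0.25). With 75th percentile scaling over probes detected on all arrays it passed, at -0.25 (limma adjusted p = 0.0067). Under that scaling 66 of 316 probes did so, 55 of them lower in good performers, and the median over all tested probes was -0.10. In the other 18 alternatives miR-30c-1* did not pass, and its log2 fold change was below 0 in all 19, from -0.27 to -0.092. The -0.27 came from the authors' normalized table, where the median over tested probes was -0.083. The fold change of miR-30c-1* was -0.098 without good performers replicate 2 and -0.22 without good performers replicate 1.

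The 3 other passenger strands were dim, so their fold changes are the more compressed by the offset. miR-30c-2*, whose sequence differs from miR-30c-1* at 3 positions, read 98.7 and 104 in good and 99.0 and 103 in poor performers, with a log2 fold change of -0.023 (limma adjusted p = 0.726). miR-30a* read 87.7 and 90.7 against 82.0 and 87.3, and miR-30e* 84.7 and 87.3 against 77.3 and 84.7. Their log2 fold changes were 0.046 and 0.051 (limma adjusted p = 0.509 and 0.562). miR-30e* had only 7 of 12 spots above the detection flag, and miR-30a* had 11 of 12.

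Main and passenger strands of miR-30c were also set against each other within arrays. The passenger strands were dimmer, so array brightness may enter these changes through the offset, and its part was not tested. miR-30c minus miR-30c-1* was 1.03 and 1.11 in good and 0.83 and 0.81 in poor performers, a change of 0.25 without normalization and of 0.20 after quantile normalization. The poor-performer arrays lay close together and well apart from the good-performer arrays. A change at least that large was seen in 14.1% of all pairs of tested probes. For miR-30c minus miR-30c-2* the values were 2.01 and 1.97 against 1.89 and 1.82, a change of 0.14, which 31.9% of pairs matched or exceeded, and of 0.064 after quantile normalization. miR-30a minus miR-30a* changed by 0.028 and, with the other sign, by -0.048 after quantile normalization. miR-30e minus miR-30e* changed by -0.041 with overlapping groups, and by -0.12 after quantile normalization. Of the 4 strand pairs 3 did not overlap, beside the 52.6% of all pairs, and no exact test can pass at this size.

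**Figure D3:**
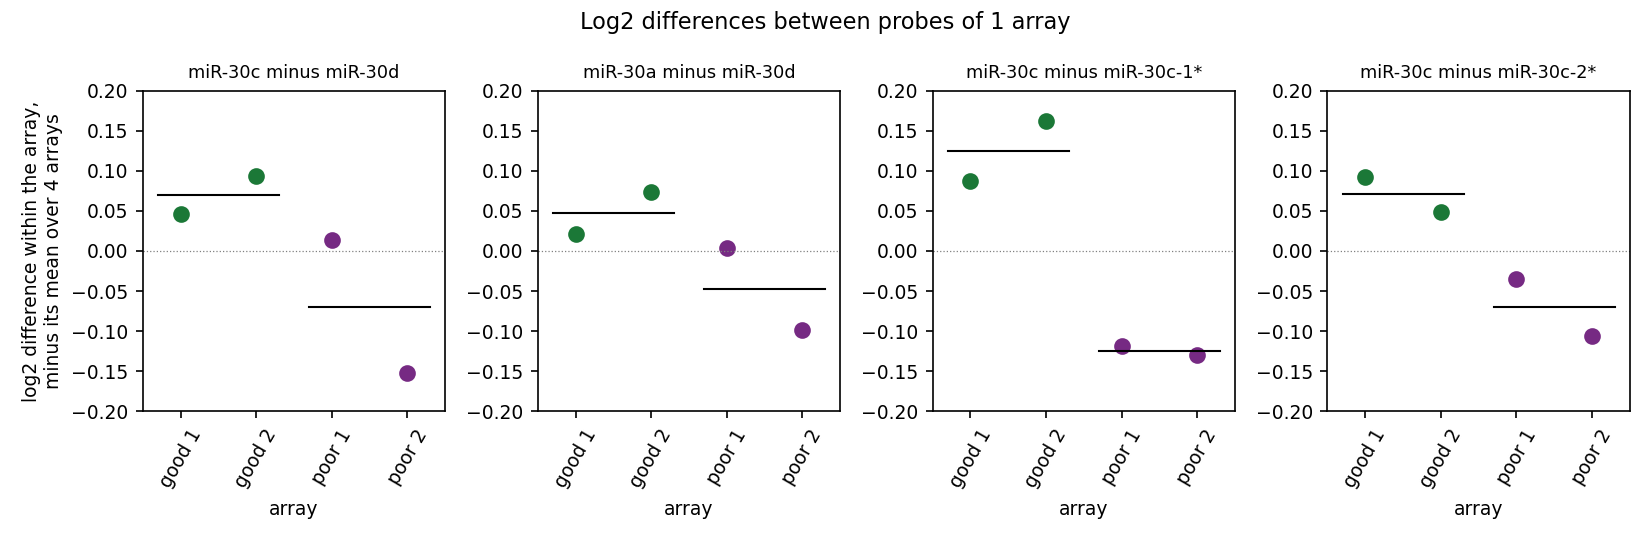
Log2 difference between 2 probes of the same array, without normalization and minus its mean over the 4 arrays, for 4 pairs chosen after their values were seen, with lines at the group means. For miR-30c minus miR-30c-1* both good-performer arrays (green) lie above both poor-performer arrays (purple), by 0.25 on average, and the other 3 pairs show smaller changes with a wider spread between the poor-performer arrays.

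miR-384-5p, the relative with the same seed, is required in rodent hippocampal slices for the maintenance of long-term potentiation. It was dim here, at 89.7 and 83.7 in good and 86.7 and 84.7 in poor performers, with 9 of 12 spots detected. The difference was -0.019 ± 0.068 log2 units (SE, limma, adjusted p = 0.921), with an interval of -0.21 to 0.17. The let-7 main strands, a larger family that also shares one seed, served as a comparison. All 8 were tested, none passed (limma; 2 at an unadjusted p under 0.05), and their log2 fold changes had a median of -0.011 and ranged from -0.12 to 0.15.

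With each probe centred on its own mean, the mean of the family was at 0.014 and -0.042 log2 units in good and at 0.036 and -0.0080 in poor performers. Each member is part of this mean, which shortens its distance to it. miR-30a stayed nearest to the mean, with a root mean square difference of 0.014, followed by miR-30b (0.025), miR-30e (0.037) and miR-30c (0.044). miR-30d was farthest, at 0.072, with its highest value on array 2 of the poor performers (0.11), where miR-30c had its lowest (-0.078). The 5 other probes nearest to the family mean over the 4 arrays were miR-153 (0.0031), miR-381 (0.0092), miR-34b-5p (0.0095), miR-154 (0.011) and miR-383 (0.011), among 311 probes with a median of 0.053. These 5 were picked as the nearest of the 311, and 0 members lay nearer than the fifth of them. The family mean itself stayed between -0.042 and 0.036.

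**Figure D4:**
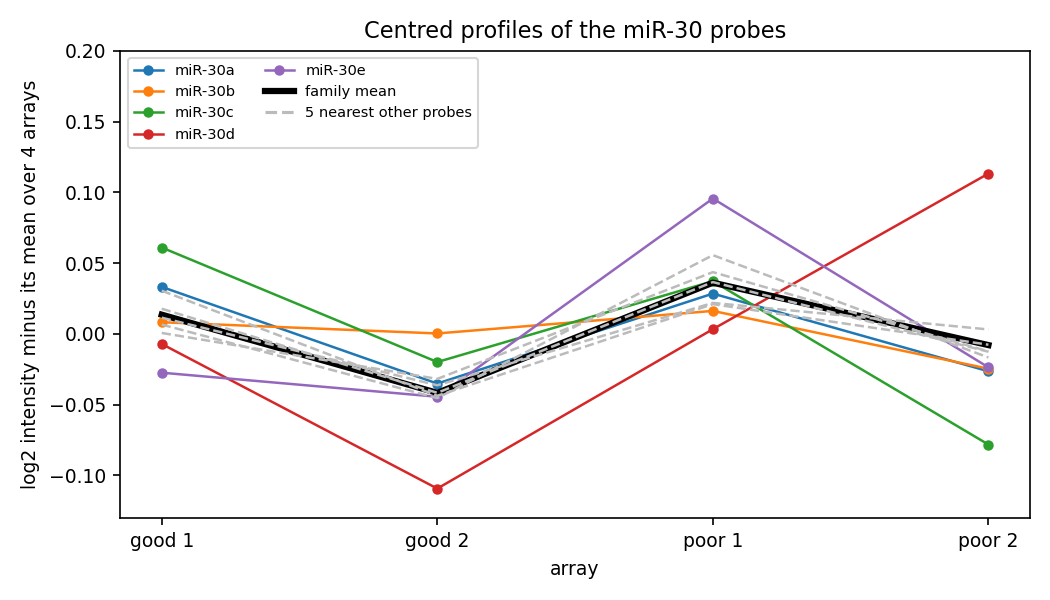
Normalized log2 intensity minus each probe's own mean over the 4 arrays, for the 5 members (colours), their mean (thick black line) and the 5 nearest other probes (dashed grey). miR-30d and miR-30c part on array 2 of the poor performers, at 0.11 and -0.078, while miR-30b stays between -0.025 and 0.016.

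The direction of most members turned with the scaling, while none passed under any of the 19 alternatives (limma). miR-30d alone of the 5 kept a lower mean in good performers throughout, from -0.17 to -0.0062. The alternatives reuse the same arrays, and how many of all tested probes kept their sign throughout was not counted. miR-30a ranged from -0.054 to 0.088, miR-30b from -0.068 to 0.074, miR-30c from -0.017 to 0.13 and miR-30e from -0.13 to 0.028. Without normalization 4 of 5 members had the higher mean in good performers, and with scaling to the spike-ins 0 of 5 did. The median of all tested probes was itself -0.11 with spike-in scaling, and the members’ median lay 0.043 above it. In the authors' deposited table the normalized intensity of miR-30d was 814 and 772 in good and 820.1 and 942 in poor performers, with a log2 ratio of -0.15. The authors' deposited table gave log2 ratios of -0.039 for miR-30a, -0.030 for miR-30b, 0.023 for miR-30c, -0.11 for miR-30e and -0.27 for miR-30c-1*, beside a median of -0.082 over its 383 probes. The miR-30c-1* ratio was number 370 of 383 from the top of the authors' deposited table.

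**Figure D5:**
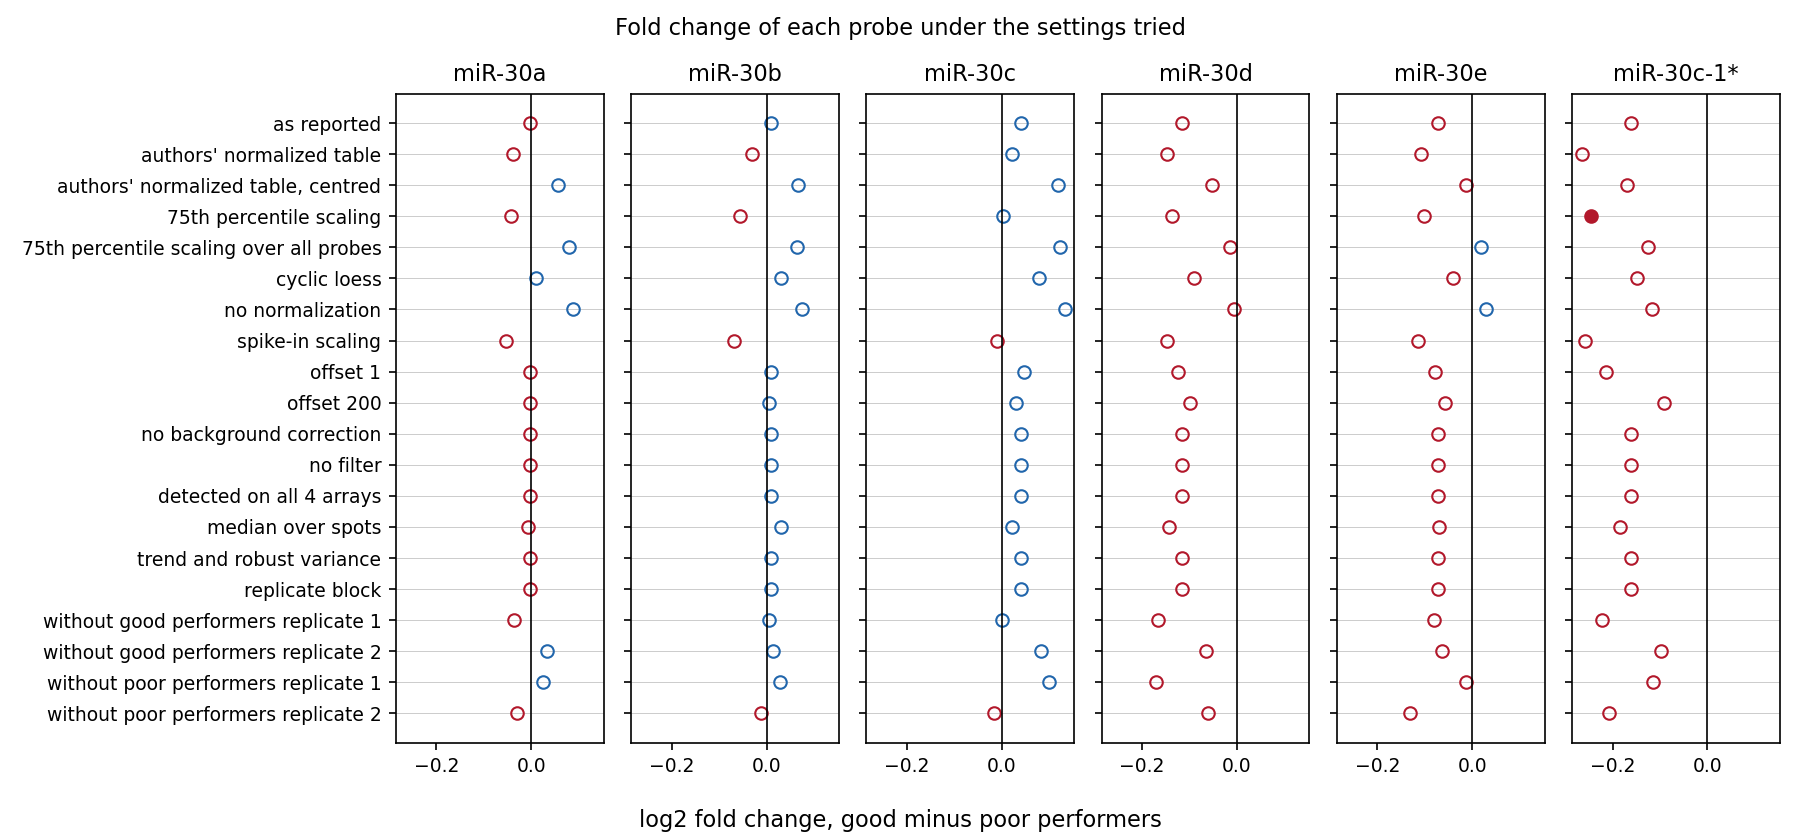
Log2 fold change, good minus poor performers, of the 5 members and of miR-30c-1* as reported and under 19 alternatives, blue above 0 and red below 0, filled where limma's adjusted p was under 0.05. miR-30d and miR-30c-1* are red in every line, the other 4 members change side, and the one filled point is miR-30c-1* with 75th percentile scaling.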

How the data were processed

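Total RNA (2.5 µg) was labelled with Cy5 and enriched for small RNA, per the labels' protocols. The deposited raw intensity, per the file headers, is unnormalized spot brightness, with another deposited value per spot, a flag of 0 or -50 (-50 taken as not detected). The authors' normalized intensity and their log2 ratio, per the file headers, cover 383 probes, with the method not stated there. The 75th percentile of that normalized intensity was the same on all arrays. The series value table repeats the normalized intensity.

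Raw intensity was background-corrected with normexp (offset 50, limma 3.58.1, R 4.3.3), log2-transformed, quantile-normalized over miRNA spots and averaged over 3 spots. Testing required flag 0 on at least 2 spots in both arrays of either group, leaving 316 of 705 probes. Groups were compared with lmFit and eBayes, two-sided, with Benjamini-Hochberg adjustment, and the fit was tested on simulated data. The number of arrays limits precision. Replicate arrays differed by 2.75 (good) and 2.47 (poor) times the variance of spot noise and were counted as 2. Members, lists and tests were chosen with earlier results of these data known. Named were all members and passenger strands, the 5 nearest profiles and fixed cell type markers, and miR-384-5p, which was added for its seed. Alternatives covered normalization, offset, filter, spot summary, variance model, replicate block and leaving out each array. The filter on 2 spots was kept from earlier work on these files.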

Additional observations from a re-analysis of the deposited data

How the results depend on the processing

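No member of the family passed in any of the 19 alternatives (limma; 0 to 0 without 1 array), of which 75th percentile scaling over all probes was chosen after seeing the data. The median log2 fold change of the members moved from -0.0020 to -0.039 in the authors' normalized table, 0.057 after centring it, -0.057 with 75th percentile scaling, 0.065 with that over all probes, 0.074 without normalization, -0.068 with spike-in scaling and -0.036 to 0.025 without 1 array. Signs turned for miR-30a in the centred authors' table (0.057), with 75th percentile scaling over all probes (0.079), cyclic loess (0.0092), no normalization (0.088) and without 1 array (-0.036 to 0.032). They turned for miR-30b in the authors' table (-0.030), with 75th percentile scaling (-0.057), spike-in scaling (-0.068) and without 1 array (-0.012 to 0.029), and for miR-30c with spike-in scaling (-0.0095) and without 1 array (-0.017 to 0.099). miR-30e turned with 75th percentile scaling over all probes (0.019) and without normalization (0.028). miR-30a* was at -0.055 in the authors' table, -0.071 with 75th percentile scaling and -0.083 with spike-in scaling, and miR-30e* at -0.10, -0.061 and -0.072, at -0.0070 in the centred table and at -0.022 with the median over spots. miR-384-5p (-0.019) ran from -0.099 to 0.061 without 1 array and was at -0.14 in the authors' table, -0.13 with 75th percentile scaling and -0.14 with spike-in scaling, where miR-30c-2* (-0.023) was at -0.13, -0.14 and -0.15. One passenger strand, miR-30c-1*, passed with 75th percentile scaling (-0.25), and 1 let-7 strand, let-7f, in the authors' table. Over all probes the 16 calls (10 higher, 6 lower) became 37 (6 and 31) in the authors' table, 66 (11 and 55) with 75th percentile scaling, 31 (10 and 21) with spike-in scaling, 30 with the trended and robust model, 6 (5 and 1) with the median over spots, 7 (6 and 1) with offset 1, 0 without 1 array, where fewer samples remain (40 to 59 at an unadjusted p under 0.05), and, with under 1.5 times as many calls, 15 (12 and 3) without normalization, 20 (15 and 5) with 75th percentile scaling over all probes and 15 (11 and 4) in the centred table. Otherwise the cause was not tested. With the replicate number as a block no call of the family changed (miR-30d adjusted p = 0.396, limma), and deviations of same-numbered arrays correlated at 0.18 over 2 pairs, too few to take the numbers as pairing.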
